A study of Elaeis guineensis with 15 samples.

Results

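The transcription factor EgEIN3 and 3 ethylene response factors, EgERF18 and a pair of transcripts both named EgRAP2.4, were followed in oil palm (Elaeis guineensis) fruit as it was shed. The members were chosen by contig name: CL1Contig4369 (EgEIN3, LOC105061340), CL1Contig10002 (EgERF18, LOC105043733), CL1Contig5354 (EgRAP2.4, LOC105048614) and CL1Contig2248 (EgRAP2.4, LOC105056862), which are 4 of 51804 assembled contigs. The study picked these contigs from the same libraries, for a change after ethylene in the abscission zone (AZ) of ripe fruit, for a difference between that tissue and the others, and for a comparable course in the field. Calls of those comparisons describe the choice and are no independent evidence for it. The comparisons of pedicel and immature AZ with their own 0 h libraries were no part of it. Levels in these libraries entered the comparison between tissues, so these changes are not fully independent of the choice.

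Ethylene is a gaseous hormone that promotes organ shedding in many plants. In Arabidopsis it is bound by membrane receptors, which it switches off. This lets the transcription factor EIN3 accumulate and activate ethylene response factor (ERF) genes. EIN3 is controlled largely at the protein level, through F-box proteins (EBF1 and EBF2) that lead it to degradation, so a transcript level is not a level of active EIN3. ERF proteins share the AP2 DNA-binding domain and include activators and repressors. RAP2.4 of Arabidopsis belongs to the DREB branch of that family and takes part in light, ethylene and drought responses. EgERF18 is an AP2-domain factor whose automatic annotation points to ERF5 of tobacco. For CL1Contig2248 the automatic annotation gives an Arabidopsis protein of unknown function, and the name EgRAP2.4 comes from a second table of the study, so its identity as a RAP2.4 is uncertain.

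The labels give 1 tenera clone from Thailand as the source of all fruit, while the methods name the clone for the ethylene experiment only. Spikelets were held in sealed boxes with 10 μl/l ethylene for 3, 6 or 9 h, or taken untreated at 0 h. The tissues were the fruit base that holds the AZ at 150 days after pollination (DAP), called AZ150, the pedicel next to it at 150 DAP without the AZ, called P150, and the fruit base with the AZ at 30 DAP, called AZ30. AZ150 separates after 9 h, while P150 and AZ30 do not. The labels give 150 DAP for the pedicel and the methods 30 DAP, and the labels were followed. A further 3 libraries came from AZ tissue in the field at 30, 120 and 160 DAP, of which the bunch at 160 DAP was shedding fruit.

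The experiment comprises 12 Roche 454 libraries, 1 for every tissue at every time and each pooled from many fruit bases, and 1 Illumina library for each field age. There is no replicate library. Untreated tissue was sequenced at 0 h only, and the effect of ethylene and that of elapsed time cannot be told apart. The fruit base also holds other cells, and fewer cells of a type cannot be told apart from less RNA in each.

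The 12 libraries hold between 26560 (AZ30 at 0 h) and 302391 reads (P150 at 6 h) in contigs, and P150 at 9 h holds 41588. Levels are stated per 100000 of the reads in contigs of a library, and their exact 95% binomial intervals cover counting error only. A single read is worth 3.77 on this scale in AZ30 at 0 h and 0.331 in P150 at 6 h. The polygalacturonase EgPG4, a pectin-degrading enzyme, was used here as the check of tissue. The paper also describes it in ripening mesocarp, so it does not mark the AZ alone. EgPG4 had 1.95, 39.0, 66.0 and 312 reads per 100000 in AZ150 at 0, 3, 6 and 9 h, so it checks little at 0 h. It had no read in any P150 library, and 0, 0, 1.28 and 46.6 in AZ30. EgPGAZ1 and EgPGAZ2, which the paper describes as specific to the AZ, were checked too. They had 3 reads and 1 read in the 4 P150 libraries together, against 314 and 45 reads in AZ150. They had 57 and 4 reads in AZ30, most of them at 9 h.

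Reads of a contig in any 2 libraries were compared, given the totals of these libraries, by the test of Audic and Claverie with exact tail probabilities. The smaller tail was doubled. The observed count was included in the lower tail only, so p-values of rises are smaller than with it in both tails. A contig was called against 0 h at p under 0.01. AZ150 was compared with the other tissues at p under 0.05. These p-values are not adjusted and compare libraries, not conditions. Over all contigs, the share called in AZ150 was 1.41% at 3 h, 1.65% at 6 h and 2.52% at 9 h. For P150 it was 3.45%, 5.19% and 2.13%, and for AZ30 1.32%, 1.14% and 3.84%. The tail rule adds calls of rises to these shares, but most calls are not rises in every comparison. Of the contigs called, 495 of 733 were higher in AZ150 at 3 h, and 236 of 1990 in AZ30 at 9 h. With the observed count in both tails, 624 contigs instead of 1104 were called in P150 at 9 h. Of these, 456 instead of 936 were higher. Of the 4 members, 3, 2 and 3 were called at 3, 6 and 9 h in AZ150. In P150, 3, 2 and 2 members were called, and in AZ30 0, 1 and 1. A call needs reads, and by total reads the members stand at or above 98.4% of all contigs, so the shares over all contigs are those of mostly scarcer ones. The members took 4 different courses.

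**Figure D1:**
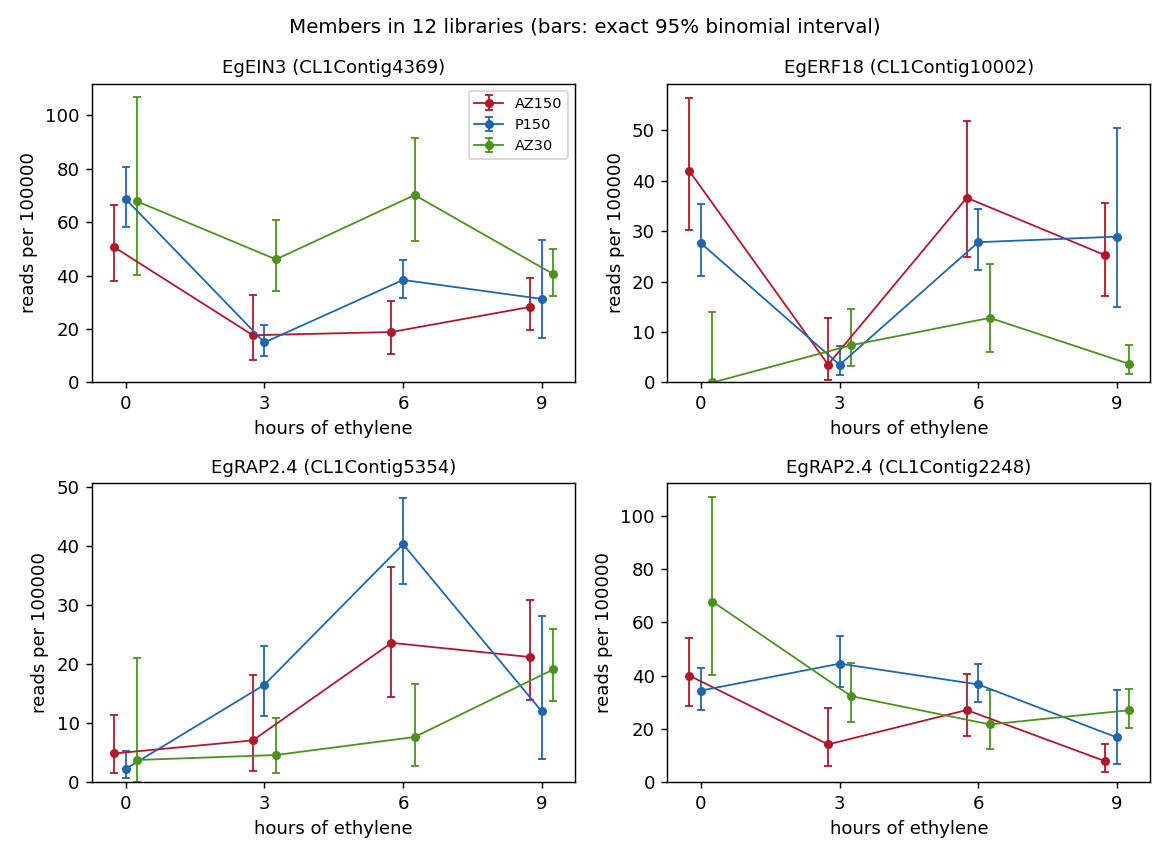
Reads per 100000 reads in contigs (y axis, from 0) of the 4 members against hours of ethylene (x axis), with AZ150 in red, P150 in blue and AZ30 in green. Each point is 1 library and each bar its exact 95% binomial interval; EgEIN3 and EgERF18 have their lowest AZ150 value at 3 h, while CL1Contig5354 is highest at 6 h in AZ150 and P150.

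EgEIN3, the member with the most reads (635 in all), was lower after ethylene in both ripe fruit tissues at every time. In AZ150 it had 50.7, 17.7, 18.9 and 28.3 reads per 100000 at 0, 3, 6 and 9 h. In P150 it had 68.7, 15.0, 38.4 and 31.3, and in AZ30 67.8, 46.1, 70.2 and 40.6. The 6 treated libraries of ripe fruit all lie below both untreated ones, whereas in AZ30 1 treated library, that at 6 h, lies above 0 h.

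The ratio of EgEIN3 to 0 h in AZ150 was 0.35 at 3 h (95% interval 0.159 to 0.696, exact p = 0.000978), 0.372 at 6 h (0.198 to 0.663, p = 0.000247) and 0.559 at 9 h (0.355 to 0.871, p = 0.0067). The change of P150 from 0 h was not used to choose the gene, although P150 levels were compared with AZ150 for the choice. In P150, which has no AZ, the ratio was 0.218 at 3 h (0.142 to 0.324, exact p = 1.69e-18), 0.558 at 6 h (0.434 to 0.715, p = 1.92e-06) and 0.455 at 9 h (0.237 to 0.801, p = 0.00347). In both tissues the fall was deepest at 3 h, although the 3 intervals overlap in AZ150 and those at 3 and 9 h overlap in P150. Adjusted over all contigs with a read (Benjamini-Hochberg), 6 h stayed under 0.05 in AZ150 (adjusted p = 0.0223, against 0.072 at 3 h and 0.173 at 9 h), as did 3 and 6 h in P150 (9.57e-16 and 0.000115, against 0.183 at 9 h). With totals rescaled by edgeR's trimmed mean of ratios (TMM), the AZ150 value at 9 h was no longer called (exact p = 0.0455), nor was it with totals of all reads (p = 0.0288). In AZ30 no time was called, and the ratios were 0.681 at 3 h (0.39 to 1.24), 1.04 at 6 h (0.599 to 1.88) and 0.599 at 9 h (0.357 to 1.06), so a fall of the size seen in P150 at 3 h lies outside all 3 intervals. With TMM scaling the AZ30 log2 ratios were 0.25, 0.66 and 0.45, also without a call.

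At matched times EgEIN3 was lower in AZ150 than in AZ30 at 3 h (ratio 0.384, interval 0.174 to 0.767, exact p = 0.0032) and 6 h (0.269, 0.144 to 0.476, p = 4.49e-07). It was lower in AZ150 than in P150 at 6 h (0.492, 0.272 to 0.833, exact p = 0.0051). At 0 h no difference was called, with ratios of 0.737 to P150 (0.527 to 1.02) and 0.748 to AZ30 (0.43 to 1.36). The field files used here hold no value for the transcript that the study pairs with EgEIN3, so its natural course with age was not analysed.

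EgERF18 dropped out at 3 h and came back. In AZ150 it had 41.9, 3.55, 36.6 and 25.2 reads per 100000 at 0, 3, 6 and 9 h, and in P150 27.6, 3.5, 27.8 and 28.9. Both tissues are near the floor at 3 h and within overlapping intervals of their untreated level at 6 h. In AZ30 it was scarce throughout, with 0, 7.38, 12.8 and 3.73 reads per 100000, or 26 reads in the 4 libraries together.

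At 3 h EgERF18 rested on 2 reads in AZ150 against 43 reads at 0 h, a ratio of 0.0846 (0.00993 to 0.325, exact p = 1.2e-06). In P150 it rested on 7 reads against 61 reads, a ratio of 0.127 (0.0489 to 0.277, exact p = 5.86e-11). These were the largest falls of any member, and both stayed under 0.05 after Benjamini-Hochberg adjustment (adjusted p = 0.000302 and 1.27e-08). At 6 h the ratio to 0 h was 0.872 in AZ150 (0.531 to 1.42, exact p = 0.574) and 1.01 in P150 (0.716 to 1.42, p = 0.981), and at 9 h it was 0.601 (0.368 to 0.971, p = 0.0279) and 1.05 (0.513 to 1.96, p = 0.776), none of them called. Direct comparison of AZ150 with P150 at 3 h gave a ratio of 1.01 with an interval of 0.103 to 5.33, which is too wide to rank the tissues.

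**Figure D2:**
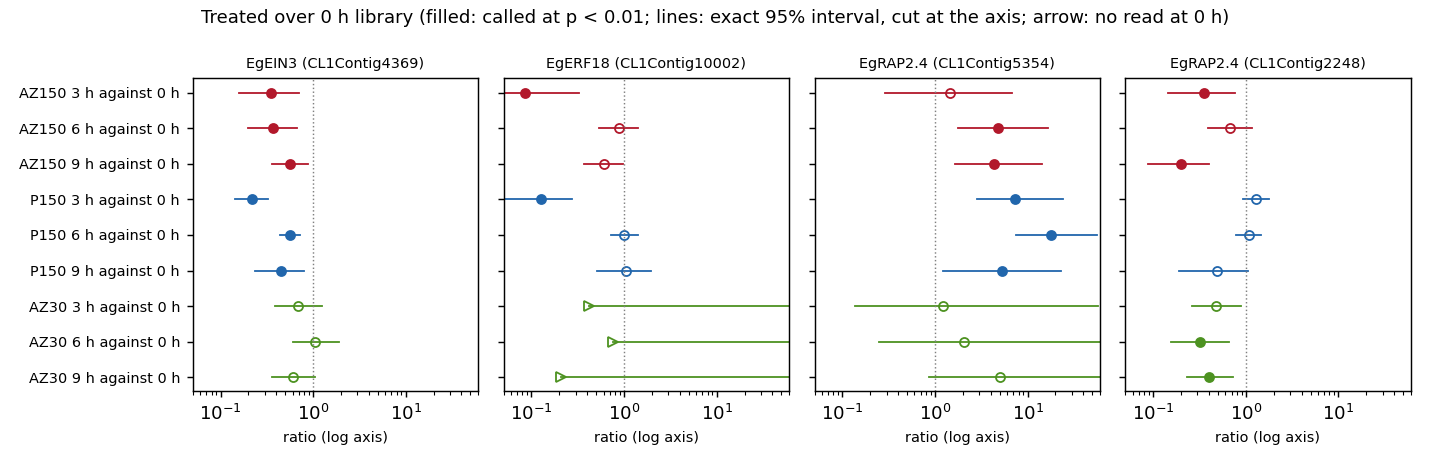
Ratio of each treated library to the 0 h library of its tissue (x axis, logarithmic) for the 4 members, with AZ150 in red, P150 in blue and AZ30 in green. Filled points were called, lines are exact 95% intervals ended at the axis, and open arrows mark the lower limit for EgERF18 in AZ30, which had no read at 0 h; EgEIN3 has 6 filled points below 1 in AZ150 and P150, and EgERF18 has filled points at 3 h only.

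Between the tissues treated with ethylene, EgERF18 was higher in the ripe AZ than in the immature AZ at every time but 3 h. At 0 h, AZ150 had 43 reads and AZ30 none, a difference that was called (exact p = 7.99e-05). With AZ30 set to a floor of 3 reads, AZ150 was 3.71-fold higher, which is not an interval limit. At 6 h, AZ150 was 2.86-fold higher than AZ30 (1.37 to 6.55, exact p = 0.00225), and at 9 h it was 6.75-fold higher (3.04 to 16.9, p = 3.66e-08). At 3 h, where AZ150 had 2 reads, the ratio was 0.48 (0.0497 to 2.41). Against P150 it was called at 0 h only, with a ratio of 1.52 (1.0 to 2.28, exact p = 0.0352), and that call was lost with TMM scaling (p = 0.187) and with totals of all reads (p = 0.0561).

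CL1Contig5354 (EgRAP2.4) rose in both ripe fruit tissues, the only member to do so. It had 4.87, 7.09, 23.6 and 21.2 reads per 100000 at 0, 3, 6 and 9 h in AZ150. In P150 it had 2.26, 16.5, 40.3 and 12.0, and in AZ30 3.77, 4.61, 7.66 and 19.1. Every treated library lies above the 0 h library of its tissue, but the untreated values rest on 5 reads in AZ150, 5 reads in P150 and 1 read in AZ30.

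In AZ150 the ratio of CL1Contig5354 to 0 h was 1.46 at 3 h (0.289 to 6.76, exact p = 0.518), 4.84 at 6 h (1.76 to 16.5, p = 0.000461) and 4.36 at 9 h (1.65 to 14.5, p = 0.000675). In P150 it was already 7.29 at 3 h (2.83 to 23.9, exact p = 5.41e-07) and reached 17.8 at 6 h (7.44 to 55.9, p = 3.62e-23). The P150 value at 9 h, 5.32 (1.22 to 23.1, p = 0.00705), compares 5 reads with 5 reads and was not called by Fisher's exact test (p = 0.0249). It was also not called with the observed count in both tails. After Benjamini-Hochberg adjustment the calls at 6 and 9 h in AZ150 (adjusted p = 0.0361 and 0.0307) and at 3 and 6 h in P150 (5.86e-05 and 1.39e-20) stayed under 0.05. AZ30 had a ratio of 5.08 at 9 h with an interval of 0.862 to 205 (exact p = 0.0835), a width set by the single read at 0 h. With TMM scaling, that AZ30 value was called (log2 ratio 2.99, exact p = 0.000502), while the P150 call at 9 h was lost (log2 ratio 1.93, exact p = 0.0279).

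Set against the other tissues, CL1Contig5354 was lower in AZ150 than in P150 at 6 h (0.585, 0.345 to 0.943, exact p = 0.0229) and higher than in AZ30 at 6 h (3.08, 1.19 to 9.37, p = 0.0108). At 9 h AZ150 and AZ30 were not called apart (1.11, 0.657 to 1.85). The highest library of this contig was thus a tissue that was not shedding, P150 at 6 h.

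CL1Contig2248, the second contig named EgRAP2.4, went the other way. It had 40.0, 14.2, 27.1 and 7.86 reads per 100000 at 0, 3, 6 and 9 h in AZ150. The P150 libraries had 34.4, 44.5, 36.7 and 16.8, and the AZ30 libraries 67.8, 32.3, 21.7 and 27.0. In AZ150 and AZ30 every treated library lies below 0 h, while P150 is above it at 3 and 6 h and below it at 9 h.

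The fall of CL1Contig2248 in AZ150 was called at 3 h (0.355, 0.144 to 0.767, exact p = 0.00403) and at 9 h (0.197, 0.0879 to 0.4, p = 2.06e-07), and not at 6 h (0.679, 0.389 to 1.16, p = 0.139). After Benjamini-Hochberg adjustment 9 h stayed under 0.05 (adjusted p = 2.39e-05, against 0.177 at 3 h). In P150 no time was called, and the ratio at 3 h was 1.29 (0.942 to 1.78), but with TMM scaling 9 h was called lower (log2 ratio -1.42, exact p = 0.00372). In AZ30 it was called lower at 6 h (0.32, 0.155 to 0.659, exact p = 0.000774) and 9 h (0.399, 0.232 to 0.72, p = 0.00113). Both AZ30 calls were lost with TMM scaling, which gave log2 ratios of -1.01 (exact p = 0.036) and -0.135 (p = 0.71). TMM shifts every AZ30 log2 ratio to 0 h upward, by 0.83, 0.631 and 1.22 at 3, 6 and 9 h, and the comparisons within AZ150 and P150 by between -0.476 and 0.274.

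The pair of contigs named EgRAP2.4 therefore had opposite calls in AZ150, where at 9 h CL1Contig5354 was 4.36-fold its 0 h level and CL1Contig2248 0.197-fold. CL1Contig2248 was lower in AZ150 than in P150 at 3 h (0.319, 0.134 to 0.656, exact p = 0.000484). It was lower in AZ150 than in AZ30 at 3 h (0.439, 0.176 to 0.964, exact p = 0.0304) and at 9 h (0.291, 0.132 to 0.574, p = 5.59e-05).

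Between tissues at the same time, the members called in AZ150 against P150 numbered 1, 1, 2 and 0 at 0, 3, 6 and 9 h, where 4.16%, 4.0%, 5.63% and 3.16% of all contigs were called. Against AZ30 they numbered 1, 2, 3 and 2, where 4.01%, 3.75%, 4.27% and 5.1% of all contigs were called. These comparisons were part of how the study picked the contigs. With the observed count in both tails, 1817 contigs instead of 2918 were called in AZ150 against P150 at 6 h. Ordering the 12 libraries by level, none of the 11 neighbouring pairs of any member had separate 95% intervals, so only libraries farther apart in the order can be told apart. TMM scaling added 4 calls, all lower in AZ150. They were EgEIN3 against P150 at 0 h (log2 ratio -0.66) and against AZ30 at 9 h (-0.76), CL1Contig5354 against P150 at 3 h (-1.53) and CL1Contig2248 against P150 at 6 h (-0.92).

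**Figure D3:**
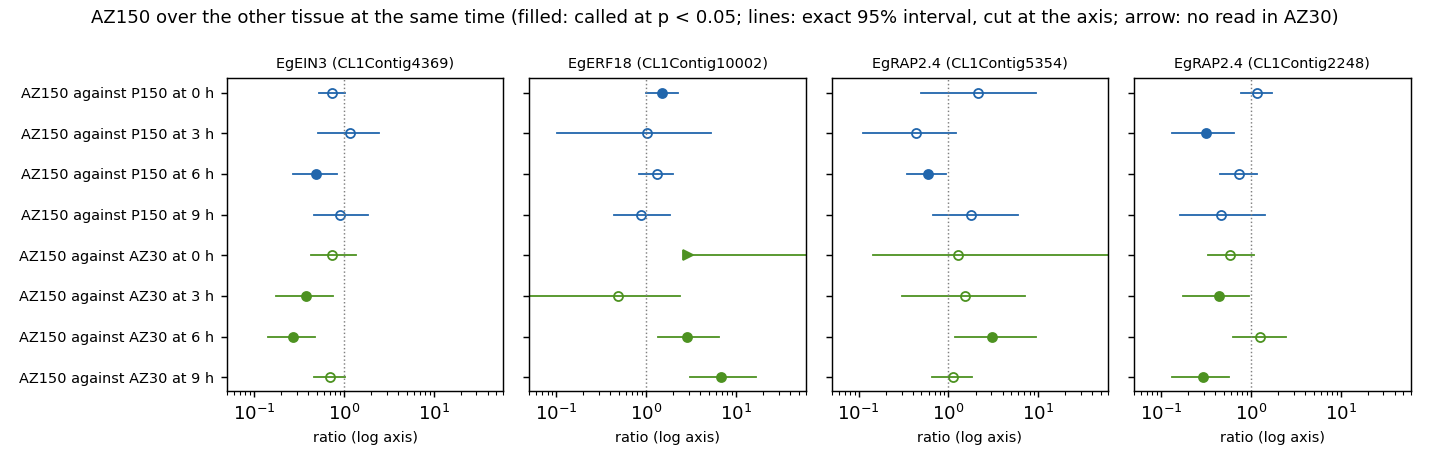
Ratio of AZ150 to P150 (blue) and to AZ30 (green) at the same time (x axis, logarithmic) for the 4 members. Filled points were called, lines are exact 95% intervals ended at the axis, and the filled arrow marks the lower limit for EgERF18 at 0 h, where AZ30 had no read; EgEIN3 and CL1Contig2248 have filled points below 1 only, and EgERF18 above 1 only.

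Over the time course, with the 4 times standing in for repeats, edgeR's quasi-likelihood test called 0.669% of 10762 contigs between AZ150 and P150 and 4.44% between AZ150 and AZ30. EgERF18 was the only member called, higher in AZ150 than in AZ30 by 1.73 on the log2 scale (edgeR adjusted p = 0.0459). The call was lost with DESeq2's Wald test (adjusted p = 0.136), with a looser filter on reads (0.237) and without 0 h (0.384), 6 h (0.115) or 9 h (0.305). EgEIN3 had a log2 difference of -1.01 to AZ30 (edgeR adjusted p = 0.266), and CL1Contig5354 and CL1Contig2248 had 0.66 and -0.77 (adjusted p = 0.702 and 0.529). Against P150 the members lay between -0.68 and 0.40, with adjusted p of 0.921 or more.

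With the 3 treated libraries of a tissue as a group against 0 h, edgeR called no contig in any tissue, with 702, 680 and 629 contigs at an unadjusted p under 0.05 in AZ150, P150 and AZ30. This fit has 1 untreated library a tissue and did not call even EgPGAZ1 in AZ150, with a log2 difference of 10. Its missing calls, also for differences between tissues, therefore say little. DESeq2, and edgeR with a looser filter on reads, called some contigs but no member. DESeq2 gave EgERF18 and CL1Contig5354 no adjusted p in AZ150, so they could not be called there. The log2 difference of EgEIN3 was -1.18 in AZ150, -1.36 in P150 and 0.08 in AZ30. CL1Contig5354 had 1.87, 3.35 and 2.02, and the P150 value was the only one of a member with an unadjusted p under 0.05 (edgeR adjusted p = 0.511). Neither tool called a contig for an ethylene effect that differed between AZ150 and P150 (216 contigs at an unadjusted p under 0.05 in edgeR) or between AZ150 and AZ30 (495 contigs).

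In the field, where natural shedding was followed with age, the 3 members with a transcript in the files followed different courses. Values are RPKM, which scale reads by transcript length and library size. EgERF18 had 1091, 264 and 82.1 RPKM at 30, 120 and 160 DAP, a ratio of 0.0752 between 160 and 30 DAP. CL1Contig5354 had 57.5, 135 and 167 RPKM, a ratio of 2.9, and CL1Contig2248 had 308, 226 and 126 RPKM, a ratio of 0.409. EgERF18 and CL1Contig2248 thus were lowest in the shedding AZ and CL1Contig5354 was highest there.

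With 1 library an age there is no test, and a change was counted at 2-fold or more (after adding 0.1 to each RPKM) if 1 of the libraries reached 1 RPKM. All 3 members passed 2-fold between 160 and 30 DAP, against 41.4% of 39464 loci or unmapped transcripts. The field course was part of the choice of the contigs, so these counts describe it and nothing is read from them. The shares over all include those too scarce to pass, while the members stand at or above 95.8% of transcripts in each field library. EgERF18 alone passed between 160 and 120 DAP, the step across which shedding appeared, with a ratio of 0.311, against 23.9% of all. EgERF18 and CL1Contig5354 passed between 120 and 30 DAP, with ratios of 0.242 and 2.34, against 30.4% of all. A rescaling by the median ratio over all genes moved the log2 ratio of 160 to 30 DAP upward by 0.7, and CL1Contig2248 then stood at -0.59 and no longer passed.

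**Figure D4:**
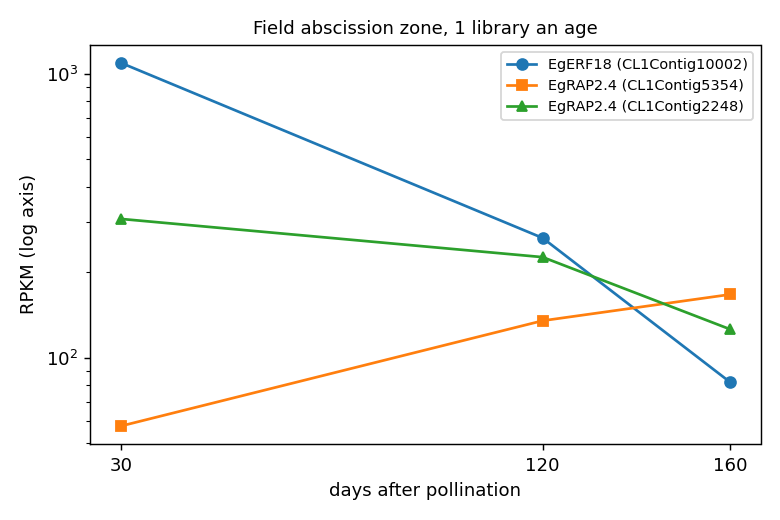
RPKM (y axis, logarithmic) of EgERF18, CL1Contig5354 and CL1Contig2248 in field AZ tissue against age in days after pollination (x axis), 1 library an age and no error bars. EgERF18 lies at 1091, 264 and 82.1 at 30, 120 and 160 DAP, CL1Contig2248 also declines with age and CL1Contig5354 increases.

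The age order of EgERF18 was not the same in the 2 experiments. In the 454 libraries it was 41.9 reads per 100000 in AZ150 and 0 in AZ30 before ethylene, while in the field it was 82.1 RPKM at 160 DAP and 1091 RPKM at 30 DAP. At 30 DAP in the field it stood at or above 99.9% of the transcripts. The platforms, bunches and handling differ between the experiments, and which of them goes with the difference was not tested. For the other members with a field value, no difference between AZ150 and AZ30 was called at 0 h. CL1Contig2248 had 40.0 reads per 100000 in AZ150 and 67.8 in AZ30 at 0 h, and 126 RPKM at 160 DAP and 308 RPKM at 30 DAP in the field, lower in the older tissue in both. CL1Contig5354 had 4.87 and 3.77 reads per 100000, which rest on 5 reads and 1 read and do not rank the ages, against 167 and 57.5 RPKM in the field.

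The rest of the ethylene pathway was read from 25 further contigs that the study annotates as ACC oxidases (the enzymes of the last step of ethylene synthesis), receptors, an EIN3-binding F-box protein or ERF/AP2 factors. They come from its tables of contigs that changed in AZ150, so their AZ150 counts are no independent evidence. In AZ150, 11 were called higher and 3 lower at 3 h, 10 and 2 at 6 h, and 13 and 2 at 9 h. Their median log2 ratios were 0.86, 1.34 and 1.04, beside -0.59, -0.46 and -0.31 over all contigs with a read. In P150, 10 were higher and 4 lower at 3 h, 10 and 6 at 6 h, and 9 and 1 at 9 h, with medians of 1.2, 0.71 and 0.83, beside 0.14, -0.45 and 0.83 over all contigs. In P150 at 9 h the 2 medians were equal. The medians over all contigs are set largely by contigs with few reads, as only 18174 of 51804 contigs hold 10 reads or more. A small constant was added to each count, so these medians follow the library totals. They are no measure of a general change. In AZ30 the numbers were 4 and 2, 0 and 0, and 4 and 1, with medians of -0.44, -0.16 and 1.07, beside -0.44, 0.03 and -1.43. The untreated library was the lowest of its tissue, or tied for lowest at 0 reads, for 17 of the 25 in AZ150, 13 in P150 and 13 in AZ30. For the 4 members the numbers were 1 in AZ150, 1 in P150 and 2 in AZ30, and the difference was not tested. The ties were CL1Contig8422, CL1Contig9511 and CL1Contig4183 in AZ150. In AZ30 they were CL1Contig8039, CL1Contig11400, CL1Contig9511 and CL1Contig4183. The AZ30 library at 0 h holds 26560 reads, where 3 reads are worth 11.3 per 100000, so its zeros are weak.

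Upstream of EIN3, ACC oxidase CL1Contig2645 had 44.8, 546, 737 and 627 reads per 100000 at 0, 3, 6 and 9 h in AZ150, and 1.36, 88.9, 186 and 264 in P150. In AZ30 it had 37.7, 107, 43.4 and 279, called higher at 3 h (ratio 2.84, exact p = 0.000396) and 9 h (7.41, p = 4.61e-19), where EgEIN3 was not called. The receptor EgEIN4 (CL1Contig5018) had 40.0, 46.1, 57.8 and 82.6 in AZ150, called at 9 h only (ratio 2.07, exact p = 4.3e-05). The EBF2-like F-box contig CL1Contig6838 had 30.2, 103, 36.6 and 51.1 in AZ150, called higher at 3 h (ratio 3.4, exact p = 1.27e-08), the time at which EgEIN3 was lowest there. In P150 it had 60.1, 51.9, 26.5 and 52.9, with a ratio of 0.864 at 3 h (exact p = 0.264). At 3 h AZ150 was 1.98-fold P150 for the EBF2-like contig (1.41 to 2.76, exact p = 5e-05), while at 0 h it was 0.502-fold (0.328 to 0.747). In AZ30 it had 79.1, 81.2, 63.8 and 97.0, with no call.

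Among the other ERF/AP2 factors, EgRAP2.2 (CL1Contig12428), related to Arabidopsis factors of low-oxygen responses, had 27.3, 70.9, 63.7 and 80.2 reads per 100000 at 0, 3, 6 and 9 h in AZ150. It was called higher there at every time, with ratios of 2.6, 2.33 and 2.94. The ERF 2a-like contig CL1Contig15779 had no read at 0 h in AZ150 and 26.7 reads per 100000 at 9 h (exact p = 2.03e-09). Like EgERF18, 2 ERF4-like contigs were called lower at 3 h and not at 6 h in AZ150. The other ERF4-like contigs were not called lower there. CL1Contig19481 was called higher at 3 h (ratio 5.82, exact p = 0.000154), and CL1Contig3535 was called higher at 6 h only (1.88, p = 5.29e-06). CL1Contig5158 had 68.2, 19.5, 89.6 and 55.8 reads per 100000 there (ratio at 3 h 0.286, exact p = 1.33e-05). CL1Contig15917 had 54.6, 19.5, 64.9 and 26.0 (ratio at 3 h 0.357, exact p = 0.000731), and was called lower again at 9 h (0.476, exact p = 0.000558). In P150 neither CL1Contig5158 nor CL1Contig15917 followed EgERF18. There CL1Contig15917 was called higher at 3 h (1.77, exact p = 0.000152) and lower at 6 h (0.0313, p = 6.86e-23). CL1Contig5158 was called lower there at 3 h (0.457, exact p = 1.11e-07) and still at 6 h (0.514, p = 2.02e-07). The ERF 2a-like contig CL1Contig6692 was called lower at every time in AZ150, with ratios of 0.272, 0.307 and 0.241. The ERF4-like contigs and CL1Contig6692 were named after their values were seen.

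**Figure D5:**
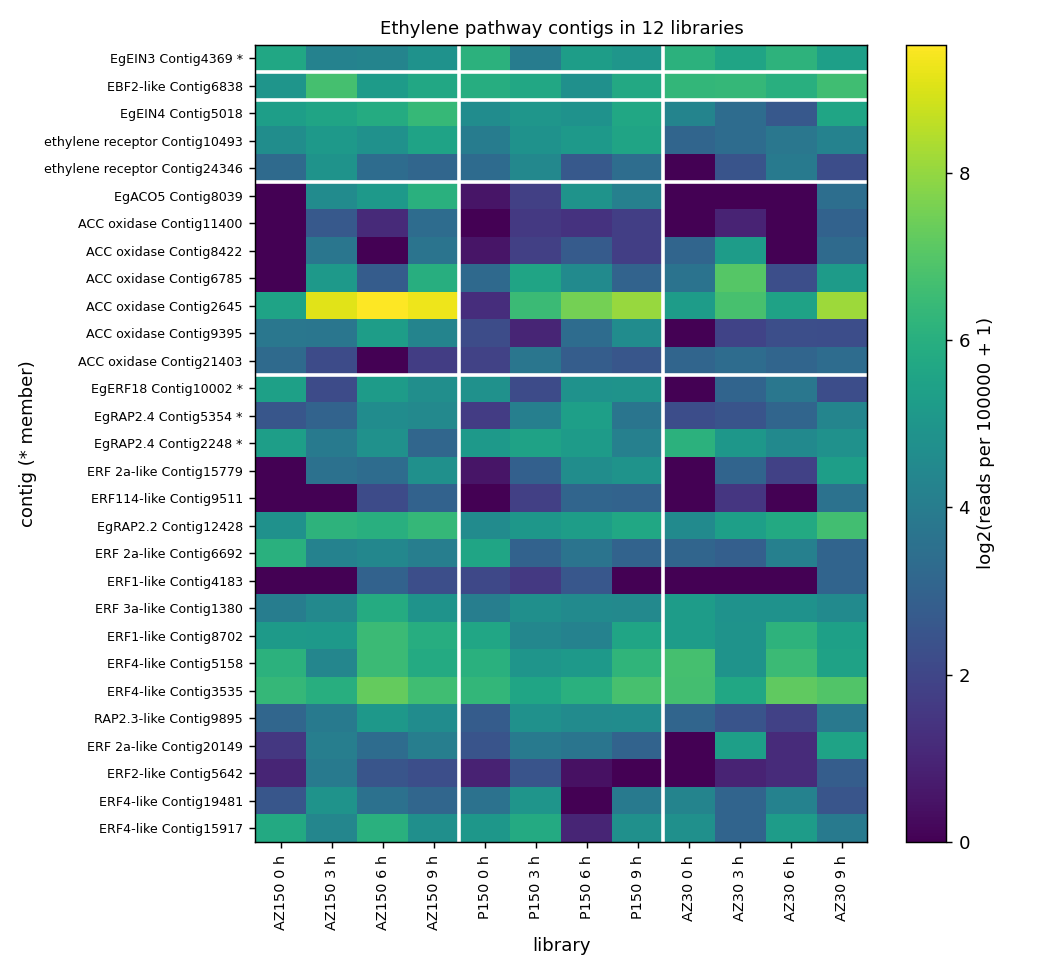
Level of the 4 members (asterisks) and 25 further ethylene pathway contigs (rows, grouped by role) in the 12 libraries (columns, AZ150, P150 and AZ30, each at 0, 3, 6 and 9 h), as log2 of reads per 100000 plus 1. CL1Contig2645 is the brightest row in the treated AZ150 libraries, at 546, 737 and 627 reads per 100000, while EgERF18 is dark at 3 h in AZ150 and P150 and in AZ30 at 0 h.

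Likeness was measured as Pearson's r of log2 of reads per 100000 plus 1 over the 12 libraries. It was taken among 673 contigs with at least 100 reads that the study annotates in its tables of contigs changed in AZ150. These were picked from the same libraries as the members were, so high r is partly built in. Likeness is a description, and the points share libraries of unequal depth. The members were not close to each other, with r between -0.564 (EgEIN3 and CL1Contig5354) and 0.345 (EgEIN3 and CL1Contig2248). Nearest to EgEIN3 was CL1Contig16170 (r = 0.794), annotated both as an aminotransferase and as an abscisic stress-ripening protein. CL1Contig1153, similar to the auxin response repressor IAA27 (0.788), and CL1Contig4234, similar to the linker histone HIS1-3 (0.786), came next. EgERF18 was closest to CL1Contig17421, similar to SKP1 of ubiquitin ligases (0.877), CL1Contig11940, a profilin that binds actin (0.874), and CL1Contig1025, similar to LBD41 (0.869). The contigs most like CL1Contig5354 were CL1Contig3345, an invertase that splits sucrose (0.905), CL1Contig654, a nitrate transporter (0.903), and CL1Contig11334, similar to the F-box protein PP2-A13 (0.878). For CL1Contig2248 they were CL1Contig23139 (0.733), CL1Contig15702, similar to TSJT1 (0.706), and CL1Contig16961, which the study names EgHSL1, a HAESA-like receptor kinase (0.704). CL1Contig23139 is annotated both as the metal-binding protein HIPP26 and as a poly(A) polymerase.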

How the data were processed

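Per the labels and methods, the authors assembled reads of all 12 454 libraries jointly and deposited raw counts of reads in each contig. For field tissue, the authors used Cutadapt for trimming, BWA-MEM for mapping to transcripts and SAMtools for counting, with versions not given in the sources used here, and RPKM values of 44360 transcripts were deposited. Reads of near-identical contigs could have been split in the assembly. A further 17 columns beside the counts of 1 library were not used.

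Computed here were reads per 100000, exact 95% binomial and conditional ratio intervals, and the Audic and Claverie test (Python 3.11.15, scipy 1.17.1). A ratio to 0 reads uses a floor of 3 reads. edgeR 4.0.16 (R 4.3.3) used TMM scaling and the 10762 contigs that reach 3 reads in 4 or more libraries. Its terms were tissue and time (6 residual degrees of freedom, biological coefficient of variation 0.421) or 6 groups of tissue by treatment (0.494); in the second fit a tissue has 1 untreated library, whose spread is taken to equal that of the others. Benjamini-Hochberg adjusted p-values cover all contigs tested and were called under 0.05. DESeq2 1.42.0 was an alternative. In the field, 23528 transcripts were summed by locus of the EG11 assembly, which gave 39464 units. On simulated counts of AZ150 (9 h against 0 h) with counting error only, the Audic and Claverie test recovered 103 of 200 contigs changed 2-fold and 200 at 4-fold. It made 44 and 60 false calls among 51804 contigs. On simulated counts with added spread, edgeR's test of AZ150 against P150 over the time course recovered 84 of 200 contigs changed 4-fold and 200 at 16-fold. Its false calls were 0 and 4. The members, lists and tests were chosen with earlier results of these data known. The named genes are the members, the pathway contigs as counts with values for some, and the 3 contigs nearest to each member. Field product lists were not used here.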

Additional observations from a re-analysis of the deposited data

Results flagged for a closer look

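EgERF18 (CL1Contig10002) moved in opposite directions relative to 0 h in AZ150 and AZ30, in all 6 treated libraries of these tissues. It had 3.55, 36.6 and 25.2 reads per 100000 at 3, 6 and 9 h in AZ150, below 41.9 at 0 h. In AZ30 it had 7.38, 12.8 and 3.73, above 0 at 0 h. The AZ30 side rests on 0 of 26560 reads, whose exact 95% upper limit is 13.9 reads per 100000, above all 3 treated values, and no AZ30 time was called (exact p = 0.278, 0.0805 and 0.699). The difference itself was not called by edgeR's interaction test, whose fit has 1 untreated library a tissue, so the missing call says little.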

How the results depend on the processing

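Of 657 single values recomputed, 610 kept their side of the threshold, 40 lost the call and 7 gained it. No called value turned its sign. Some uncalled values did, such as EgEIN3 in AZ30 at 3 and 9 h with TMM scaling. Members were called 8 times of 12 against 0 h in AZ150, 7 in P150 and 2 in AZ30. With adjusted p under 0.05 the number was 5 in AZ150 and 1 in AZ30, and in AZ30 it was also 1 with adjusted p over contigs of 10 reads or more, CL1Contig2248 lower at 9 h in both. With TMM-scaled totals the AZ30 number was 1 as well, but this was CL1Contig5354 higher at 9 h, and both calls of CL1Contig2248 were lost. Against P150 at the same time 4 of 16 were called, 0 with adjusted p and 1 over contigs of 10 reads or more. Against AZ30 8 of 16 were called, and 4 and 5 under these settings. Over the time course, 1 member was called in AZ150 against AZ30, and 0 with DESeq2's Wald test or with at least 1 read in 4 libraries, and between 0 and 1 in the leave-one-out fits without 0, 3, 6 or 9 h. The labels give no replicate numbers, so no replicate block was fitted; the fit over the time course compares tissues within matched times. Without 0 h the treated libraries have no reference, so the fits after ethylene were not run there. Depth limits AZ30 at 0 h, P150 at 9 h and AZ150 at 3 h most.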
